A study of Mus musculus with 20 samples.

Results

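The genes described here are 9 neutrophil genes of the granule contents, the calprotectin dimer, the phagocyte oxidase and chemoattractant receptors: S100a8, S100a9, Ltf, Camp, Ela2, Prtn3, Ncf1, Fpr1 and Il8rb. They were chosen by symbol, as every assay on the panel whose symbol is one of these names, which gave 10 assays among the 648 assays for 584 gene symbols. S100a8 had 2 assays (Mm00496696_g1 and Mm01220132_g1) and each other gene had 1. Il8rb is an older symbol of Cxcr2. Ela2 is an older symbol that RefSeq lists for Elane, neutrophil elastase, and also for the pancreatic elastase gene Cela2a, so the identity of that assay rests on its panel name.

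A TaqMan OpenArray panel of mouse inflammation genes was run by quantitative PCR on RNA of ileal mucosa from 20 samples, which fall into 4 groups of 5. CEC samples came from mice given DNBS into the rectum and CEC by mouth, Nissle samples from mice given DNBS and oral Nissle, DNBS samples from mice given DNBS and oral phosphate-buffered saline (PBS), and healthy samples from mice given PBS by both routes. DNBS (dinitrobenzene sulfonic acid) is a hapten used to set off colitis in rodents, Nissle is the name of a probiotic Escherichia coli strain, and the labels do not spell out CEC. Samples carry the number of their title (CEC 1, 3, 5, 7 and 8, and healthy 1b, 3, 4, 5 and 6), and the strain, the age and the time after DNBS are not given in the sources used here. The design text says that RNA of each mouse was pooled before profiling, so it is not known whether a sample is 1 mouse, and p-values reflect only how these samples vary, which may be technical.

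Neutrophils are made in the bone marrow, where the serine proteases of the primary granules (elastase and proteinase 3) are transcribed early and the contents of the later granules (lactoferrin, cathelicidin) thereafter, while S100A8 and S100A9, which pair as calprotectin and fill the cytosol, are still transcribed in mature cells. Circulating neutrophils follow chemokine gradients through CXCR2 and bacterial formyl peptides through FPR1, and kill with an NADPH oxidase whose cytosolic organizer is encoded by Ncf1. In the gut they leave the vessels over P-selectin and are drawn in by CXCL1, CXCL2 and CXCL5, and calprotectin and lactoferrin in stool are used as markers of intestinal inflammation. In a bulk sample, fewer neutrophils and less RNA per neutrophil cannot be told apart.

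The values were raw cycle thresholds (Ct), the number of PCR cycles to a fixed fluorescence, so a lower Ct means more template, and 40 stands for no amplification (undetermined). Each was turned into a relative level, the negative of its Ct minus the mean Ct of the same sample over the 451 assays measured in every sample. It is on the log2 scale under the assumption, not checked here, of a doubling per cycle. Levels of different assays cannot be set against each other, because primers differ in efficiency. In 173 cells of the table (1.48% of the cells with a value, 1 to 37 per sample) the deposited Ct equalled, within 1e-05 cycles, the mean of the other 4 samples of its group, so these cells hold no measurement of their own and were left missing. Of these, 6 lie in assays described here: Ltf in DNBS 3, Camp in CEC 8, Nissle 2 and DNBS 3, Ela2 in Nissle 3, and Il8rb in healthy 6. Samples had 537 to 592 measured assays and a mean Ct of 22.4 to 24.0 cycles over those 451, and Nissle 3, 4 and 5 carry a contradictory label of the experimental group that names healthy controls, while their titles and treatment labels name Nissle.

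S100a8 and S100a9 lie next to each other on chromosome 3, as do Prtn3 and Elane on chromosome 10, with no other protein-coding gene between the members of each pair in RefSeq. The promoters of S100a8, S100a9 and Ltf are shown, 3 genes whose levels went together across the samples. Il8rb (Cxcr2) went with them too, and its window is described but not shown. Each window runs from 250 bases before to 50 bases after the annotated start, on the gene's strand, from RefSeq (GRCm38.p6). Capitals mark 3 motifs searched on both strands: TTNNGNAA, the core bound by C/EBP factors, GAGGAA, a core of PU.1 sites, and TATAAA, the letters of a TATA box.
S100a8 (chr3:90668821-90669120, plus strand): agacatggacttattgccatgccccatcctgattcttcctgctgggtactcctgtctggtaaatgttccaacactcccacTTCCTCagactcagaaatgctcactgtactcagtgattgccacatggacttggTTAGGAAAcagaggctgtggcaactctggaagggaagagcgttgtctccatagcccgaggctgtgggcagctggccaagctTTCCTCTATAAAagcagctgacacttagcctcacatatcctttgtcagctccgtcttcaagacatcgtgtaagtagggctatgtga
S100a9 (chr3:90695672-90695971, minus strand): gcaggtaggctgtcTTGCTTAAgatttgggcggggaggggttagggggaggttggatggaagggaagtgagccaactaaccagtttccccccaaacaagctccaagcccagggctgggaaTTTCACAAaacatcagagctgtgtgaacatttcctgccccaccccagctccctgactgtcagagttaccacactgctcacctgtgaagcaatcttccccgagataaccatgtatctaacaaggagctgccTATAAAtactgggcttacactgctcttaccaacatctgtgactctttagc
Ltf (chr9:111019042-111019341, plus strand): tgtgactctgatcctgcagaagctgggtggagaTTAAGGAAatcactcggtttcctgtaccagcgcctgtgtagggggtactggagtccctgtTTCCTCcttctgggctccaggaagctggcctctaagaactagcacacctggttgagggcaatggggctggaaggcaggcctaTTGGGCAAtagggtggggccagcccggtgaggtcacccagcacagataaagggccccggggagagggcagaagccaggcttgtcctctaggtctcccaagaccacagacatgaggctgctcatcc
In the S100a8 window a TATA box begins 30 bases before the start, directly after a GAGGAA match on the other strand that begins at -36, so that the capitals run together without an overlap, and a C/EBP core match begins at -117. The S100a9 window has C/EBP core matches beginning at -236 and -130. Its TATAAA match begins at position 1 of the annotated transcript and thus not before the start. The Ltf window has C/EBP core matches at -217 and -75 and no TATAAA match. Of the 9 promoters (Elane for Ela2), 4 hold a C/EBP core match, 5 a PU.1 core match and 3 a TATAAA match. The shares over all 32851 promoters of this length were 40.7%, 28.3% and 13.6%. The TATAAA matches begin at -30 in S100a8, at 1 in S100a9 and at -227 in Fpr1. The window of Cxcr2 (Il8rb) has 0 C/EBP core, 2 PU.1 core and 0 TATAAA matches. A match is a string of letters and not evidence of binding.

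DNBS samples had higher average levels than healthy samples of S100a8, S100a9, Ltf and Il8rb, by 1.69 to 4.46 log2 units, while Camp, Ncf1 and Fpr1 differed by -0.01 to 0.23 log2 units. The proteases Ela2 and Prtn3 were measured in some DNBS-treated samples and in no healthy sample. No difference in their detection passed (Fisher's exact test, smallest adjusted p = 0.250, Ela2 in Nissle against healthy). The CEC and Nissle averages lay between the DNBS and healthy averages for S100a8, S100a9, Ltf and Il8rb, while single samples of both groups lay outside them. None of these differences in level passed the test across the panel (limma, Benjamini-Hochberg adjusted p under 0.05 over 569 assays), and the spread within the DNBS-treated groups was wide.

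**Figure D1:**
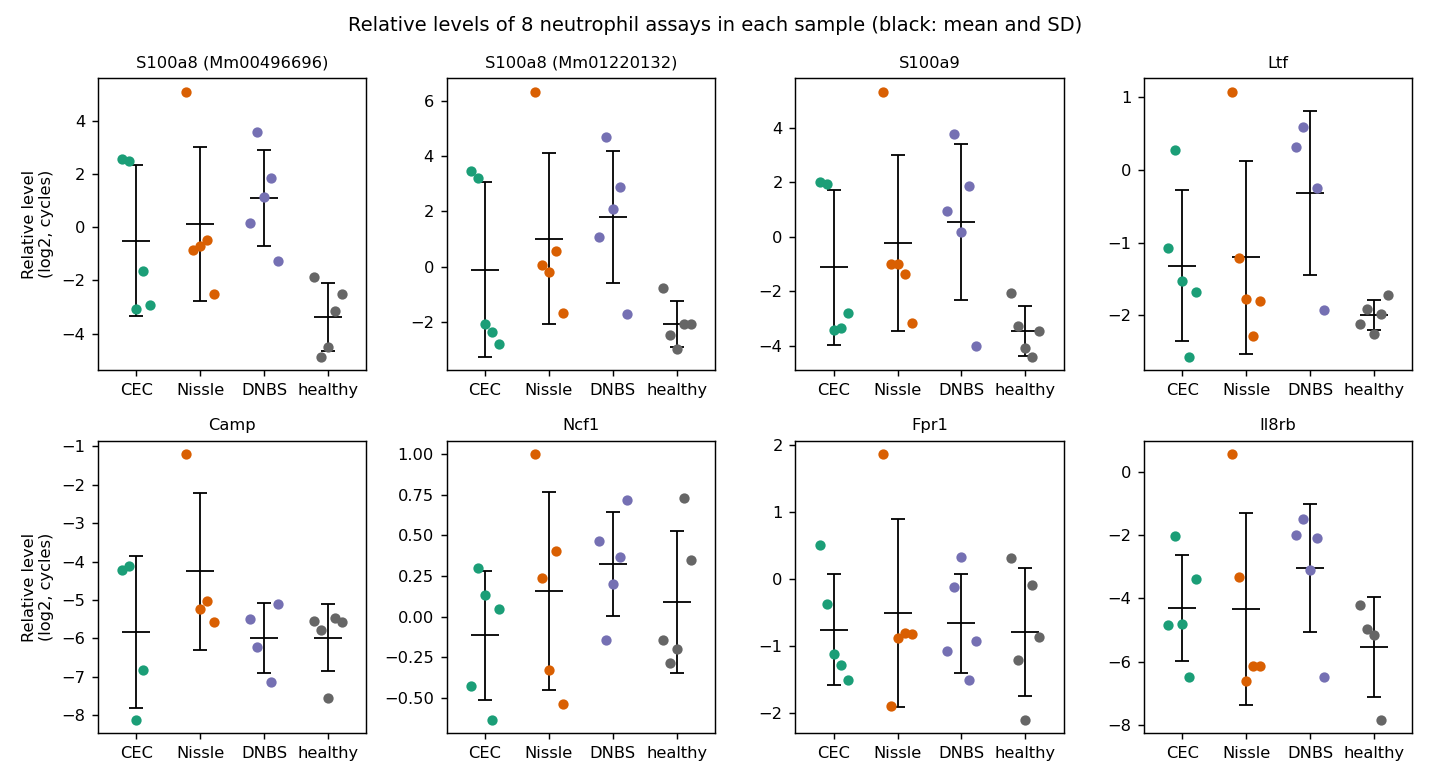
Relative level (log2, cycles) of the 8 assays measured in enough samples to be tested, by group. Each point is a sample in the order of its number, and black bars are the mean and SD. The highest point of every panel is Nissle 1.

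The first S100a8 assay (Mm00496696_g1) measured the smaller subunit of calprotectin, which binds calcium and withholds zinc and manganese from microbes. Its relative level was 2.58, 2.50, -3.09, -1.63 and -2.91 in CEC 1, 3, 5, 7 and 8, and 5.09, -0.85, -0.71, -0.47 and -2.51 in Nissle 1 to 5. It was 0.14, 3.56, 1.13, 1.85 and -1.25 in DNBS 1 to 5, against -1.89, -4.87, -4.49, -3.14 and -2.50 in healthy 1b, 3, 4, 5 and 6. All 5 DNBS samples lay above all 5 healthy samples, Nissle overlapped healthy through Nissle 5 alone, and CEC fell into a high pair (1 and 3) and 3 samples that lay within or next to the healthy range. The mean was 1.08 ± 1.81 in DNBS and -3.38 ± 1.28 in healthy samples (SD, n = 5 each), a log2 difference of 4.46 (SE 1.31, 95% interval 1.74 to 7.19, 22-fold; limma adjusted p = 0.171). Of the 569 assays tested, 14 (2.46%) had all DNBS values above all healthy values, and this was the only one of the genes described here among them.

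The second S100a8 assay (Mm01220132_g1) gave 3.45, 3.22, -2.09, -2.35 and -2.79 in CEC 1, 3, 5, 7 and 8, and 6.33, 0.06, -0.21, 0.56 and -1.67 in Nissle 1 to 5. It gave 1.08, 4.69, 2.07, 2.88 and -1.73 in DNBS 1 to 5, against -0.77, -2.46, -2.99, -2.06 and -2.08 in the healthy samples. DNBS 5 fell inside the healthy range here, and the other 4 DNBS samples were above it. The DNBS mean was 1.80 ± 2.37 and the healthy mean -2.07 ± 0.82 (SD, n = 5 each), a log2 difference of 3.87 (SE 1.43, 95% interval 0.89 to 6.86, limma adjusted p = 0.191). The 2 assays of S100a8 tracked each other (Pearson r = 0.971 over 20 samples), but their Ct difference (Mm00496696_g1 minus Mm01220132_g1) ran between -0.71 cycles in CEC 7 and 2.41 cycles in healthy 3, with a median of 0.94. Both are of the type whose primers may also amplify genomic DNA, and how much they did was not tested.

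S100a9, the larger subunit, had levels of 2.01, 1.95, -3.41, -3.34 and -2.80 in CEC 1, 3, 5, 7 and 8, and 5.33, -0.99, -0.99, -1.34 and -3.15 in Nissle 1 to 5. In DNBS 1 to 5 it was at 0.97, 3.76, 0.19, 1.85 and -4.0, against -2.05, -3.26, -4.06, -4.40 and -3.46 in healthy 1b, 3, 4, 5 and 6. The split of the CEC samples and the single low DNBS sample returned in this gene, and 4 of 5 DNBS samples, 4 of 5 Nissle samples and 2 of 5 CEC samples lay above every healthy sample. The means were 0.55 ± 2.87 in DNBS and -3.45 ± 0.90 in healthy samples (SD, n = 5 each), a log2 difference of 4.0 (SE 1.48, 95% interval 0.91 to 7.09, limma adjusted p = 0.191). The SD was 2.84 in CEC, 3.23 in Nissle, 2.87 in DNBS and 0.90 in healthy samples.

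Ltf encodes lactoferrin, the iron-binding protein of the secondary granules, which glandular epithelia also make. Its level was -1.07, 0.28, -1.53, -2.57 and -1.68 in CEC 1, 3, 5, 7 and 8, and 1.08, -1.21, -1.77, -2.29 and -1.81 in Nissle 1 to 5. It was 0.32, 0.60, -0.24 and -1.93 in DNBS 1, 2, 4 and 5, against -2.12, -1.92, -2.26, -1.99 and -1.72 in the healthy samples. The healthy samples lay close together, between -2.26 and -1.72, and 3 of the 4 measured DNBS samples were above them. The DNBS mean was -0.32 ± 1.13 (SD, n = 4) and the healthy mean -2.0 ± 0.21 (SD, n = 5), a log2 difference of 1.69 (SE 0.63, 95% interval 0.36 to 3.01, limma adjusted p = 0.191).

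Camp encodes the cathelicidin precursor, stored in the same granules and cut into an antimicrobial peptide after release. Its level was -4.23, -4.12, -8.11 and -6.83 in CEC 1, 3, 5 and 7, and -1.21, -5.23, -5.02 and -5.57 in Nissle 1, 3, 4 and 5. It was -5.50, -6.22, -7.14 and -5.09 in DNBS 1, 2, 4 and 5, against -5.55, -5.77, -7.54, -5.48 and -5.57 in the healthy samples. DNBS and healthy ranges nearly coincided, and the log2 difference was -0.01 (SE 0.96, 95% interval -2.03 to 2.02, limma adjusted p = 0.994), an interval that does not exclude a change as large as that of Ltf. The sign turned with the scaling, to 0.37 without scaling and 0.31 with quantile scaling. Nissle minus healthy was 1.72 (SE 0.96, limma adjusted p = 0.555), and 0.71 without Nissle 1.

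Ela2 and Prtn3 encode serine proteases of the primary granules, which cut matrix and bacterial proteins, and were late or undetermined, so their detection was compared in place of their levels. Ela2 had a Ct of 32.0 in CEC 3, the only CEC sample with a value, and of 30.3, 31.8, 30.7 and 31.8 in Nissle 1, 2, 4 and 5. It had a Ct of 32.6 in DNBS 3 and 31.6 in DNBS 5, and was undetermined in the other 3 DNBS samples and in all 5 healthy samples. So Ela2 was detected in 1 of 5 CEC, 4 of 4 Nissle, 2 of 5 DNBS and 0 of 5 healthy samples, and 0 of 5 allows a share of up to 52.2% (exact Clopper-Pearson 95% interval, counting error only). Nissle 2 and Nissle 5 had the same Ct of Ela2 (31.8236), and both were counted as detected. Whether these are separate measurements was not tested. Nissle against healthy had the smallest p (Fisher's exact test, two-sided, p = 0.00794), and after adjustment over the 63 assays whose detection varied there it was 0.250. None of these 63 assays passed (0%), and 3 (4.76%) had an unadjusted p under 0.05. With the group-mean value of Nissle 3 counted as undetermined, the exact p was 0.0476.

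Prtn3 had a Ct of 29.0 in CEC 3, of 27.7 and 29.4 in Nissle 1 and 2, and of 33.6, 30.3 and 30.1 in DNBS 1, 4 and 5, and was undetermined in the other samples. That is 1 of 5 CEC, 2 of 5 Nissle, 3 of 5 DNBS and 0 of 5 healthy samples, with an exact p of 0.167 for DNBS against healthy (Fisher's exact test, adjusted p = 0.931 over 67 assays, 0% of them called and 2.99% at an unadjusted p under 0.05). Both proteases were measured in CEC 3, Nissle 1, Nissle 2 and DNBS 5, and at least 1 of them in 9 of the 15 DNBS-treated samples. On the whole panel 45 assays were undetermined in all 5 healthy samples, and 5 of these, Ela2 and Prtn3 among them, were measured in 6 or more of the 15 DNBS-treated samples. The other 3 were Fgf23, Il13ra2 and Scgb3a1, named after their values were seen. The cut of 6 equals the count of Prtn3, and Ela2 had 7. Both therefore pass it by construction, and their place among the 5 says nothing on how rare the pattern is.

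**Figure D2:**
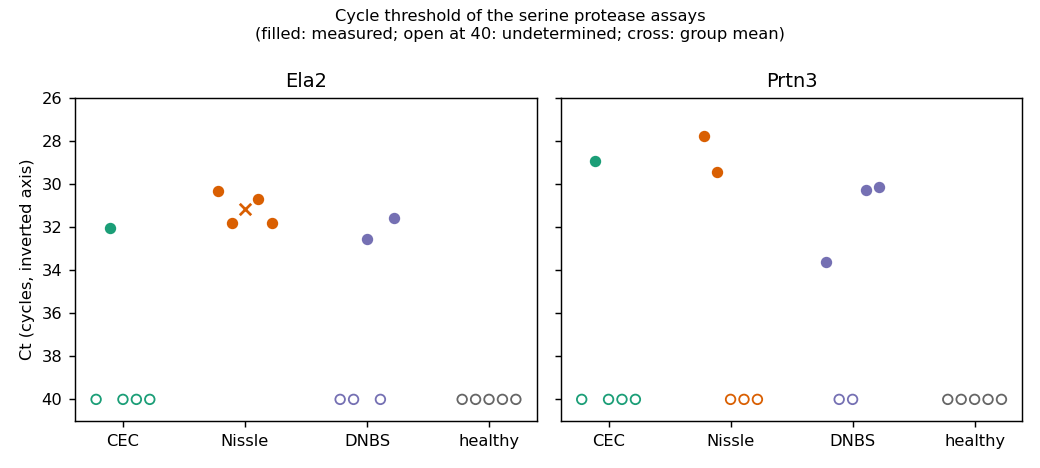
Ct (cycles, axis inverted so that more template is higher) of Ela2 and Prtn3 in each sample by group. Filled points are measured, open points at 40 are undetermined, and the cross is the value of Nissle 3 that equals the mean of the other Nissle samples. All healthy samples are undetermined for both.

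Ncf1 encodes p47phox, which carries the oxidase's cytosolic part to the membrane and is expressed in other phagocytes as well. Its levels were -0.43, 0.30, 0.14, -0.63 and 0.05 in CEC 1, 3, 5, 7 and 8, 1.0, 0.24, -0.33, 0.40 and -0.53 in Nissle 1 to 5, and 0.46, -0.14, 0.20, 0.37 and 0.72 in DNBS 1 to 5. Healthy samples were at -0.15, -0.28, -0.20, 0.73 and 0.35, and all groups overlapped. The log2 difference of DNBS minus healthy was 0.23 (SE 0.30, 95% interval -0.39 to 0.85, limma adjusted p = 0.795), so a rise of the size seen in the S100a8 and S100a9 averages lies outside its interval. Of the markers of macrophages, monocytes and dendritic cells, 8 were measured and 7 had a higher DNBS than healthy average (median log2 difference 0.57, none called). The share over all assays tested was 47.1%. Their mean level per sample was -1.68 to -0.57 in DNBS and -2.14 to -1.39 in healthy samples, and their part in the level of Ncf1 was not tested.

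Fpr1, the formyl peptide receptor, was at 0.52, -0.38, -1.12, -1.29 and -1.50 in CEC 1, 3, 5, 7 and 8, and at 1.86, -1.89, -0.87, -0.80 and -0.82 in Nissle 1 to 5. It was at -1.08, -0.12, 0.32, -1.51 and -0.92 in DNBS 1 to 5, against 0.32, -1.21, -2.10, -0.09 and -0.87 in the healthy samples. The ranges of all 4 groups overlapped, and DNBS minus healthy was 0.13 (SE 0.59, 95% interval -1.11 to 1.36, limma adjusted p = 0.958). Its assay lies within a single exon and can also amplify genomic DNA. The 53 single-exon assays tested had a median log2 difference of -0.61 for DNBS minus healthy, where all 569 assays had -0.03, and the part of this in Fpr1 was not tested.

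Il8rb, the receptor CXCR2 for the CXC chemokines that recruit neutrophils, had levels of -4.83, -2.02, -4.82, -6.49 and -3.40 in CEC 1, 3, 5, 7 and 8, and 0.56, -3.31, -6.61, -6.13 and -6.15 in Nissle 1 to 5. In DNBS 1 to 5 it was at -2.0, -1.48, -3.11, -2.10 and -6.48, against -4.21, -4.98, -5.15 and -7.84 in healthy 1b, 3, 4 and 5. Of the DNBS samples 4 lay above every measured healthy sample and DNBS 5 lay among the lowest of all. The DNBS mean was -3.03 ± 2.01 (SD, n = 5) and the healthy mean -5.55 ± 1.58 (SD, n = 4), a log2 difference of 2.51 (SE 1.33, 95% interval -0.26 to 5.29, limma adjusted p = 0.436).

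Between DNBS and healthy samples, the comparison that asks what the colitis treatment did in the ileum, 8 of the 10 assays had the 3 values per group needed for the test, and Ela2 and Prtn3 did not. Of these 8, 7 had a higher DNBS average, against 47.1% of all 569 assays, and S100a8 counts among the 7 with both its assays. None of the 8 passed, where 1 of the 569 assays (0.176%) did. The median log2 difference was 2.10 over the 8 and -0.03 over all 569. At an unadjusted p under 0.05 there were 4 of 8 (both S100a8 assays, S100a9 and Ltf), against 80 of 569 (14.1%). These 4 are not independent, since their levels went together across the samples. The genes were also chosen with earlier results of these data known, so the shares cannot be set against each other as a test. DNBS 5 was the lowest DNBS sample in both S100a8 assays, S100a9, Ltf and Il8rb, although it had the highest Ncf1 of its group and both proteases. Without it, the differences were 5.14 for S100a9, 2.22 for Ltf and 3.37 for Il8rb, and still none of the 8 passed. With sample weights estimated from the data, 4 of the 8 passed (the first and second S100a8 assays, S100a9 and Ltf, limma adjusted p = 0.00797 to 0.0121), and 85 of all assays did. With only these 2 groups in the fit, the first S100a8 assay passed (limma adjusted p = 0.0256). Other assays of the panel passed there too, and their count is given with the alternatives below.

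**Figure D3:**
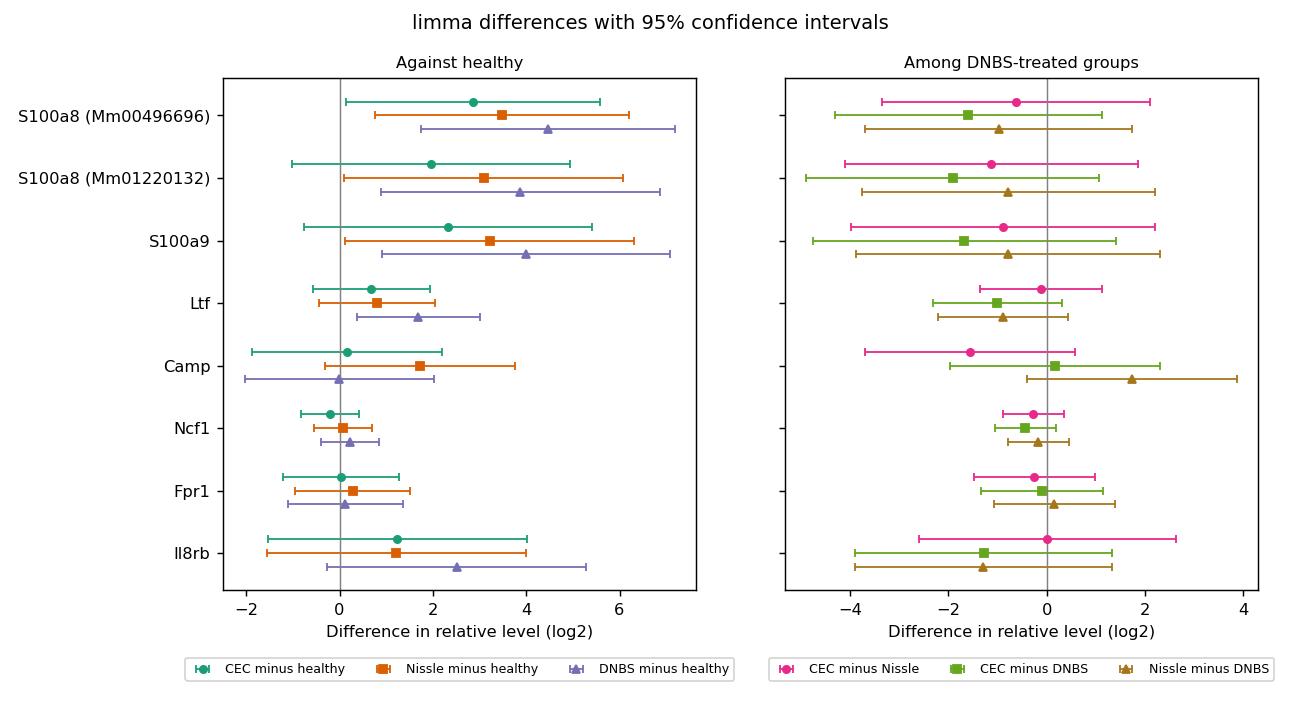
Log2 difference in relative level with its 95% confidence interval (limma, whiskers) for 8 assays, against healthy samples on the left and among the DNBS-treated groups on the right. The points of S100a8 and S100a9 lie at 1.96 to 4.46 on the left, and every interval on the right spans 0.

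CEC samples had higher averages than healthy samples for S100a8 (2.87, SE 1.31, and 1.96, SE 1.43, for the 2 assays), S100a9 (2.33, SE 1.48) and Il8rb (1.23, SE 1.33), and Ltf differed by 0.68 (SE 0.60). The limma adjusted p ran from 0.804 to 0.988 over the 8 assays. None of them was called, as was none of the 569 (0%), and 1 of the 8 against 20 of the 569 (3.51%) had an unadjusted p under 0.05. The averages of S100a8 and S100a9 rested on CEC 1 and CEC 3. Without CEC 1 the difference was 1.07 for the second S100a8 assay and 1.54 for S100a9, without CEC 3 it was 1.13 and 1.56, and without CEC 3 Il8rb differed by 0.66. Camp, Ncf1 and Fpr1 differed by 0.16, -0.21 and 0.03 (SE 0.96, 0.30 and 0.59).

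Nissle samples had higher averages than healthy samples for S100a8 (3.49, SE 1.31, and 3.09, SE 1.43), S100a9 (3.22, SE 1.48), Camp (1.72, SE 0.96) and Il8rb (1.22, SE 1.33). All 8 differences were positive, where 46.7% of all assays were, with a median of 1.47 against -0.05 over all assays. None passed (limma adjusted p from 0.555 to 0.944), where 1 of the 569 (0.176%) did, and 3 of 8 against 47 of 569 (8.26%) had an unadjusted p under 0.05. Nissle 1 was the highest of all 20 samples in 9 of the 10 assays, the exception being Ela2, which was highest in Nissle 4. Without Nissle 1 the differences were 2.24 and 1.76 for the S100a8 assays, 1.83 for S100a9, 0.71 for Camp and -0.01 for Il8rb. Among the other Nissle samples, 3 of 4 still lay above every healthy sample in S100a8 and S100a9. Without Nissle 3, 4 and 5, whose labels conflict and which are the lower part of the group in Il8rb, 2 samples are left, and the first S100a8 assay differed by 5.49 (limma adjusted p = 0.118).

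CEC samples had lower averages than DNBS samples for S100a8 (-1.59, SE 1.31, and -1.91, SE 1.43), S100a9 (-1.67, SE 1.48), Il8rb (-1.28, SE 1.25), Ltf (-1.0, SE 0.63) and Ncf1 (-0.44, SE 0.30), which is the comparison that asks whether the oral treatment altered the response to DNBS. The median over the 8 assays was -1.14 against -0.03 over all assays. Of the 8, 7 were negative, where 48.2% of all assays had a positive difference. None of the 8 and none of the 569 (0%) was called, and at an unadjusted p under 0.05 there were 0 of 8 against 59 of 569 (10.4%). The 95% intervals of the first S100a8 assay (-4.32 to 1.13) and of S100a9 (-4.76 to 1.42) span 0. Without DNBS 2 the values were -0.98 and -1.19 for S100a8 and -0.87 for S100a9, and without DNBS 5 the difference in S100a9 was -2.81, in Il8rb -2.14 and in Ltf -1.54. The comparison shares its DNBS samples with that of DNBS and healthy samples.

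Nissle minus DNBS was -0.98 (SE 1.31) and -0.78 (SE 1.43) for S100a8, -0.78 (SE 1.48) for S100a9, -0.88 (SE 0.63) for Ltf, -1.29 (SE 1.25) for Il8rb and 1.73 (SE 1.01) for Camp. None of the 8 and none of the 569 (0%) passed, 0 of 8 and 26 of 569 (4.57%) had an unadjusted p under 0.05, and the limma adjusted p ran from 0.847 to 0.940. Without Nissle 1 the difference in Il8rb was -2.52 and in Camp 0.72. Without Nissle 3, 4 and 5 it turned positive for S100a8 (1.03 and 1.40), S100a9 (1.61), Ltf (0.25), Ncf1 (0.30) and Il8rb (1.66), with Nissle 1 then 1 of the 2 samples.

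CEC minus Nissle was -0.62 (SE 1.31) and -1.13 (SE 1.43) for S100a8, -0.89 (SE 1.48) for S100a9, -0.12 (SE 0.60) for Ltf, -1.56 (SE 1.01) for Camp and 0.02 (SE 1.25) for Il8rb. None of the 8 and none of the 569 (0%) passed, with 0 of 8 and 9 of 569 (1.58%) at an unadjusted p under 0.05. Without Nissle 1 the second S100a8 assay differed by 0.20 and Camp by -0.55. Ela2 was detected in 1 of 5 CEC and 4 of 4 Nissle samples (Fisher's exact test, p = 0.0476, adjusted p = 1 over 60 assays, none of them called, 0%, and 1.67% at an unadjusted p under 0.05). These 4 include Nissle 2 and Nissle 5, whose Ct of Ela2 was the same. The remaining Nissle sample held a group-mean value. With it counted as undetermined, detection was 1 of 5 CEC against 4 of 5 Nissle samples (Fisher's exact test, p = 0.206).

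The 8 assays were also set against each other across the 20 samples, as 28 pairs. A pair shares the scaling of its samples, and the groups differ in level, so the relation was also computed on deviations from the group means. Of the 28 pairs, 17 had an adjusted p under 0.05 for Pearson's r (permutation test, 100000 resamples) and 13 for Spearman's rho, and 20 did for Pearson's r on the deviations. Samples were permuted over all groups, also for the deviations, whose spread differed between groups. The p-values of the deviations are thus not tests within groups. Next, the 2 samples farthest from the median of the first assay of a pair were left out, mostly DNBS 2 and Nissle 1. This left 9 of the 17 pairs for Pearson's r on relative levels. The 2 S100a8 assays were each paired with every other assay, so the pairs are not independent. The share of pairs that pass over the whole panel was not computed, so these counts cannot be called particular to these genes.

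S100a8 and S100a9 were the closest pair of genes (r = 0.945 and 0.978 for the 2 S100a8 assays, rho = 0.895 and 0.890, permutation p = 1e-05, the smallest that 100000 resamples can give, adjusted p = 5.6e-05). Without DNBS 2 and Nissle 1, r was 0.907 and 0.960. S100a9 with Ltf gave r = 0.896 and rho = 0.744 over 19 samples (0.806 without the same 2 samples), Ltf with Il8rb r = 0.887 and rho = 0.808 over 18 samples (0.808 without them), and S100a9 with Il8rb r = 0.825 and rho = 0.747 over 19 samples (0.703 without them). Their permutation p adjusted over the 28 pairs was 8e-05, 5.6e-05 and 5.6e-05, and without the 2 samples 0.00174, 0.00049 and 0.00952. On deviations from the group means r was 0.638 to 0.971 among these 5 assays, so they tended to be high in the same samples within groups. CEC 1 was an exception, highest of the CEC samples in S100a8 and S100a9 but at -4.83 in Il8rb (CEC mean -4.31). On relative levels the first S100a8 assay with Il8rb had the lowest r of these (0.692, rho = 0.618), and without DNBS 2 and Nissle 1 its adjusted permutation p was 0.114. On deviations this pair had r = 0.638 and rho = 0.481 (adjusted permutation p = 0.00534 and 0.0627). Without CEC 1 and Nissle 1 its r on deviations was 0.535 (adjusted permutation p = 0.0538). Camp went with Fpr1 (r = 0.819, rho = 0.713 over 17 samples, permutation p adjusted 0.00059; 0.681 without CEC 5 and Nissle 1, adjusted 0.0163) and not detectably with Il8rb (r = 0.381, rho = 0.068 over 16 samples, adjusted permutation p = 0.175; -0.064 without those 2 samples). On relative levels Ncf1 had no pair with an adjusted p under 0.05, and its r ran from 0.229 with S100a9 to 0.428 with Camp. On deviations from the group means Ncf1 with Camp had r = 0.519 and rho = 0.566 over 17 samples (adjusted permutation p = 0.045 and 0.0354), and without CEC 5 and Nissle 1 r was 0.508 (adjusted permutation p = 0.0863).

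**Figure D4:**
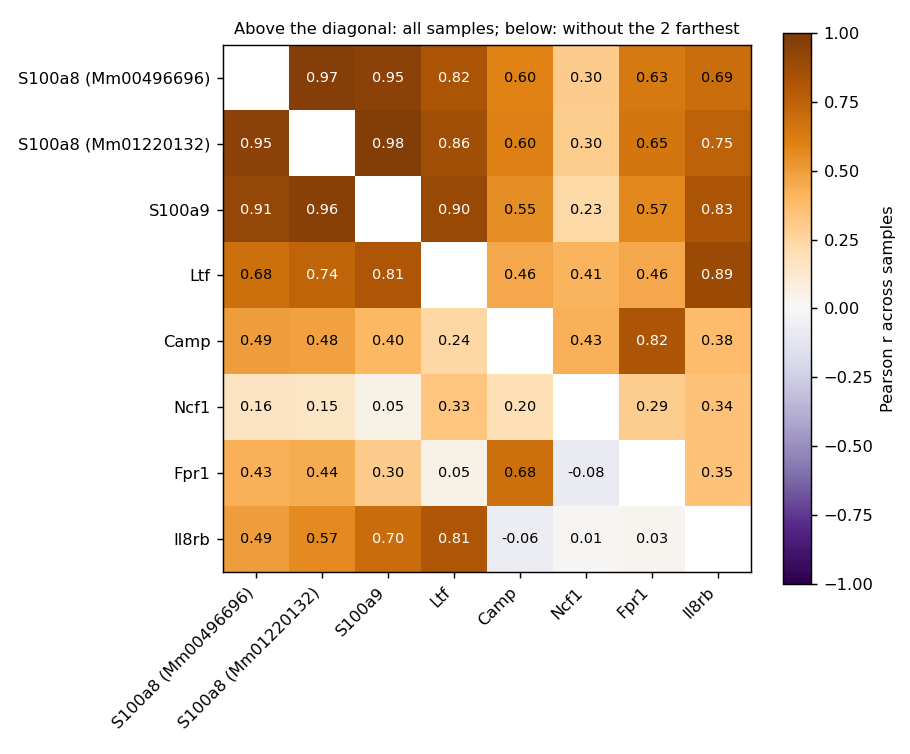
Pearson r between the relative levels of 8 assays across samples, with all measured samples above the diagonal and without the 2 samples farthest from the median of the first assay below it. Above the diagonal, r lies between 0.692 and 0.978 among S100a8, S100a9, Ltf and Il8rb, and between 0.229 and 0.428 for Ncf1.

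**Figure D5:**
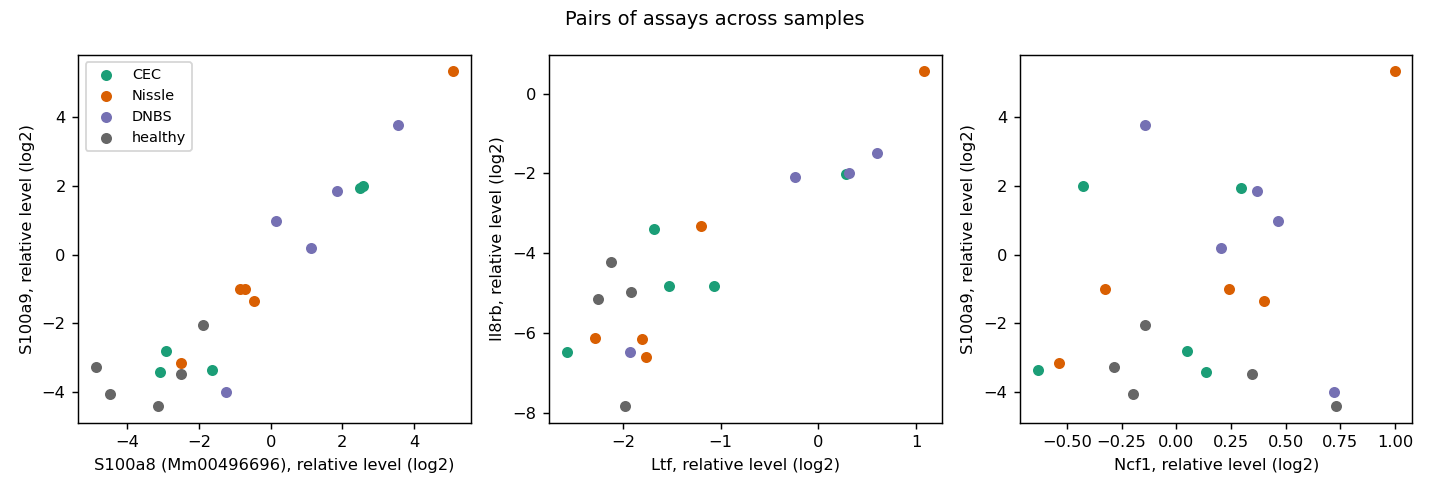
Relative levels (log2, both axes) of pairs of assays, with a point per sample coloured by group: S100a9 against the first S100a8 assay, Il8rb against Ltf, and S100a9 against Ncf1. The first 2 pairs line up (r = 0.945 and 0.887), with Nissle 1 at the upper right, and the third does not (r = 0.229).

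The assays of other genes that most resembled these genes were sought by Pearson r among the 446 assays measured in all 20 samples. For both S100a8 assays Selp, which encodes the endothelial and platelet adhesion receptor P-selectin, came first (r = 0.904 and 0.902 over 20 samples) and the leukocyte inhibitory receptor Lilrb3 second (0.881 and 0.899). The third was Cd14, a lipopolysaccharide co-receptor (0.875), for the first S100a8 assay, and Hmox1, heme oxygenase, (0.889) for the second. S100a9 had Selp (0.887), the chemokine gene Cxcl5 (0.866) and Hmox1 (0.860). Ltf had Il1rn, the interleukin-1 receptor antagonist (0.878 over 19 samples), Cxcl1 (0.865) and Cxcl5 (0.864), and Il8rb had Il1b (0.914 over 19 samples), Il1rn (0.894) and Ptafr, the receptor of platelet-activating factor (0.856). On deviations from the group means, 12 of these 15 places were held by the same assays. The exceptions were Ccr1, a chemokine receptor, which came first for S100a9 (0.910) and for Ltf (0.902 over 19 samples), and Il1b, which was also among those of Ltf (0.867). All values share the scaling of the samples, and the part of Nissle 1 in them was not tested.

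Other genes of the neutrophil pathway were taken as lists of names, and no member of any list was called between DNBS and healthy samples. Of all assays tested, 47.1% had a higher DNBS average. Of the CXCR2 ligands and granulopoietic factors, 7 were tested and 6 had a higher DNBS average, with a median of 1.03 where all assays had -0.03. Cxcl2 differed by 4.78 (SE 1.53, limma adjusted p = 0.177), Cxcl1 by 2.19 (SE 0.80, limma adjusted p = 0.191) and Cxcl3 by 2.79 (SE 1.42, limma adjusted p = 0.411). Of the cytokines that induce neutrophil genes, all 7 tested were higher in DNBS (median 1.76), led by Il22 (3.59, SE 1.55, an assay shared with Iltifb), Osm (1.84, SE 0.82) and Il1b (1.85, SE 0.86), with limma adjusted p of 0.291, 0.299 and 0.332. Each gene of a list is shown by a single assay, that of lowest mean Ct. The Il1b assay used here is another than the Il1b assay that resembled Il8rb and Ltf. Tnf was undetermined in all 20 samples.

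Receptors of neutrophil chemoattractants and growth factors showed little difference, with 6 of 9 higher in DNBS and a median of 0.11. Tlr4, which binds calprotectin and lipopolysaccharide, and its co-receptor Cd14 differed by 0.72 (SE 0.37) and 1.04 (SE 0.57). Among the oxidase and other granule or secreted products, 4 of 6 were higher (median 0.36), with Chi3l3, a chitinase-like protein of macrophages and neutrophils, at 6.56 (SE 2.09, limma adjusted p = 0.177). Of the adhesion genes 4 of 5 were higher (median 0.36), and Selp differed by 1.63 (SE 0.61, limma adjusted p = 0.191).

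Epithelial markers were looked at beside the tissue label, which they cannot test because no sample of another tissue was measured. Of 6 on the panel, Apoa1, Ccl25, Ccl28, Il18 and Reg3g were measured and Apoa4 was undetermined in all samples. The mean level per sample of the 4 measured everywhere was 6.30 to 6.72 in CEC, 5.47 to 6.54 in Nissle, 5.42 to 6.47 in DNBS and 6.15 to 6.53 in healthy samples. In DNBS minus healthy, 2 of 5 were higher, with a median of -0.24, and none was called. They ran from -1.45 (Ccl25, SE 0.47) to 1.09 (Il18, SE 0.41). The 2 T cell markers tested had lower DNBS averages (median -0.54), the mast cell marker Kit differed by -0.67 (SE 0.25), the 2 eosinophil and the 2 B cell markers went 1 each way, and Selp was the only endothelial marker tested (-3.76 to -2.0 in DNBS and -4.47 to -4.09 in healthy samples). The 16 reference genes tested had a median difference of 0.04, and the part of these lists in the levels described here was not tested.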

How the data were processed

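The authors deposited a table of raw Ct values (cycles, a cycle count to threshold and not a read count) for 648 assays in 20 ileal samples, in which 40 stands for undetermined. Per the file headers the table is a truncated example of the raw data, and per the labels' protocols RNA was extracted with a mirVana kit, with an average RNA integrity number over 9. The handling of undetermined values by the authors is not given in the sources.

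From these Ct values, cells equal to the mean of the other 4 samples of their group (within 1e-05 cycles) and values of 40 were left missing. Each other Ct was subtracted from the sample's mean Ct over the 451 assays measured in every sample, which assumes doubling per cycle. The 569 assays that had 3 or more values per group were fitted with 4 group means over 20 samples (limma 3.58.1 in R 4.3.3, eBayes with trend, Benjamini-Hochberg adjustment over 569), and the code was tested on simulated data. For detection, a two-sided Fisher's exact test (scipy 1.17.1) was run over assays whose detection varied. Relations used 100000 permutations of the samples over all groups. The table gives no replicate wells, so 5 samples per group limit the precision.

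The genes, the lists of pathway genes and the cell markers were chosen with earlier results of these data known. All 9 genes are named, with the 3 assays most like each of S100a8, S100a9, Ltf and Il8rb, and the list members with the smallest p. Same-numbered DNBS and healthy samples deviated together (correlations of 0.196 to 0.575 over 3 pairs), as did CEC and healthy samples (0.180 to 0.182 over 2 pairs). In each other comparison the lowest correlation was negative. Samples of different number were not compared in this way, so the correlations do not show a pairing. A replicate block was tried. Other alternatives were other scalings, sample weights, the 2 groups alone, the samples left out in turn, Nissle without the samples of conflicting label, the deposited group-mean values kept, centring within the 12 blocks of 54 rows, and a detection limit of 35.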

Additional observations from a re-analysis of the deposited data

Results flagged for a closer look

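In 33 groups of member values, the gap of the highest or lowest sample to its nearest neighbour, divided by the group's range, was compared with Dixon's 95% limit, which chance passes in about 1 in 20 groups, and 5 passed. Nissle 1 was set apart at the top of the Nissle group in 4 of them. The first S100a8 assay (Mm00496696_g1) had a ratio of 0.732, with Nissle 1 at 5.09 and the next sample at -0.47. The second (Mm01220132_g1) had 0.722, with Nissle 1 at 6.33 and the next at 0.56. S100a9 had 0.745, with 5.33 and -0.99, and Camp had 0.874 over the 4 measured samples, with -1.21 and -5.02. These assays are correlated, so the 4 are not independent. Nissle 1 also had the lowest mean Ct of all samples (22.4 cycles), and the part of that in these values was not tested. In the healthy group, healthy 4 was set apart at the low end of Camp (-7.54, the next sample at -5.77, ratio 0.858).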

How the results depend on the processing

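Of 48 differences between groups (8 assays, 6 comparisons), 26 kept their direction under every alternative run and 22 did not. Of 1662 alternative values, 1576 kept the direction and were not called, 5 were called and 81 had the other sign. The calls were in DNBS minus healthy, with 1 assay called when only these 2 groups were fitted (9 of all assays) and 4 with sample weights (85 of all assays), against 0 in the main analysis. No member was called in any comparison when a sample was left out. Leaving out the 2 farthest samples left 9 of the 17 related pairs. With the replicate block no member was called either, and DNBS minus healthy was 4.35 and 3.28 for S100a8, 3.22 for S100a9, 1.32 for Ltf and 2.01 for Il8rb (limma adjusted p from 0.442 to 0.691).

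Signs turned under these settings, and the cause was not tested. Sample weights gave -0.051 for Fpr1 and -0.48 for Camp in CEC minus healthy, -0.34 for Il8rb and -0.0052 for Ncf1 in Nissle minus healthy, -0.39 for Camp in CEC minus DNBS, -0.22 for Fpr1 in Nissle minus DNBS and 0.13 for Ltf in CEC minus Nissle. Centring within 12 blocks, chosen after seeing the data, gave 0.26 for Fpr1 in CEC minus DNBS, 0.16 for Ncf1 in Nissle minus DNBS and -0.20 for Il8rb in CEC minus Nissle. Keeping the group-mean values, also chosen after seeing the data, gave 0.14 for Camp in DNBS minus healthy and -0.054 in CEC minus DNBS. Without scaling, Camp was 0.37 in DNBS minus healthy and -0.24 in CEC minus DNBS, Ncf1 0.039 in Nissle minus DNBS and Il8rb -0.36 in CEC minus Nissle. Quantile scaling gave 0.31 for Camp in DNBS minus healthy and -0.078 for Il8rb in CEC minus Nissle. The replicate block gave -0.22 for Camp in CEC minus healthy and -0.094 in CEC minus DNBS, and in CEC minus Nissle 0.39 for Ltf, 0.69 and 0.74 for S100a8 and 0.68 for S100a9. Scaling by reference genes gave -0.095 for Fpr1 in CEC minus healthy and -0.13 for Il8rb in CEC minus Nissle. Scaling by the median gave -0.034 for Fpr1 in DNBS minus healthy, -0.013 for Ncf1 in Nissle minus healthy and 0.044 for Fpr1 in CEC minus DNBS. Without Nissle 3, 4 and 5, Nissle minus DNBS was 1.03 and 1.40 for S100a8, 1.61 for S100a9, 0.25 for Ltf, 0.30 for Ncf1 and 1.66 for Il8rb, and CEC minus Nissle was -2.94 for Il8rb.

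With each sample left out in turn, the lowest and highest differences of the results whose sign turned were as follows. Camp ran from -0.40 to 0.93 in CEC minus DNBS, from -0.41 to 0.92 in CEC minus healthy and from -0.40 to 0.38 in DNBS minus healthy. Fpr1 ran from -0.41 to 0.15 in CEC minus DNBS, from -0.60 to 0.34 in CEC minus Nissle, from -0.29 to 0.31 in CEC minus healthy, from -0.20 to 0.40 in DNBS minus healthy, from -0.43 to 0.50 in Nissle minus DNBS and from -0.31 to 0.63 in Nissle minus healthy. Il8rb ran from -0.56 to 1.24 in CEC minus Nissle and from -0.0057 to 1.79 in Nissle minus healthy, Ltf from -0.52 to 0.45 in CEC minus Nissle, and Ncf1 from -0.38 to 0.0068 in Nissle minus DNBS and from -0.14 to 0.24 in Nissle minus healthy. In CEC minus Nissle the first S100a8 assay ran from -1.39 to 0.63, the second from -2.02 to 0.20 and S100a9 from -1.67 to 0.50, and S100a9 ran from -2.17 to 0.018 in Nissle minus DNBS. Scaling moved the median difference of all assays by over 0.1 in some comparisons, among them by 0.19 in DNBS minus healthy and 0.39 in Nissle minus healthy without scaling, and by -0.16 in DNBS minus healthy with median scaling. The PCR efficiency of each assay is unknown, which limits the folds.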

Other observations

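The 173 cells that equal the mean of the other 4 samples of their group lay in 124 assays, with 26 in Nissle 3 and 37 in healthy 5. An assay and group with 4 measured values and 1 such cell occurred 173 times, against 7 times with 4 measured values and 1 undetermined value, and 64 times with 3 measured and 2 undetermined values. Of these cells, 39 lay in Nissle 3, 4 and 5. All 39 matched the mean of the Nissle samples and 0 matched that of the healthy samples, although another label of these samples names healthy controls. How the cells came about was not tested.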
